A study of Mus musculus with 24 samples.

Results

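CC chemokine ligand genes were followed through IL-4 treatment of mouse bone marrow-derived macrophages, for 10 members listed by gene symbol, all of which were found among the 23420 genes of both deposited tables. They comprised the monocyte attractants Ccl2, Ccl7 and Ccl12, the MIP-1 ligands Ccl3 and Ccl4, the related pair Ccl6 and Ccl9, and the type 2 chemokines Ccl17, Ccl22 and Ccl24. RNA came from 24 samples in 12 groups of 2, all labelled as male C57BL/6 mice aged 3 months, whose marrow cells had grown for 6 days with the macrophage growth factor M-CSF. In the antagonist experiment, 4 groups received IL-4 with GW9662, IL-4 with vehicle, GW9662 alone or the DMSO and ethanol vehicle alone, each for 24 h. GW9662 is a compound that binds the nuclear receptor PPARγ and blocks its ligand pocket, and the labels give no dose for it. In the memory experiment, cells labelled as Pparg knockout (KO) and wild type (WT) formed 4 groups each. The second IL-4 groups had IL-4 for 24 h, a washout with 24 h in differentiation medium, and IL-4 again for 3 h, whereas the first IL-4 groups had only the final 3 h of IL-4. The washed groups had the 24 h of IL-4 and the washout but no final IL-4, and the unstimulated groups had none at all. IL-4 was used at 20 ng per µl as labelled. How Pparg was deleted is not given in the labels, nor whether both samples of a group were separate animals or cultures, so p-values measure only the spread between these samples, which may be technical.

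CC chemokines are small secreted proteins that draw leukocytes along a gradient by binding seven-transmembrane receptors. Ligands of Ccr2, such as Ccl2, Ccl7 and Ccl12, recruit monocytes, and the MIP-1 ligands Ccl3 and Ccl4 recruit monocytes and T cells during inflammation. Macrophages exposed to the type 2 cytokine IL-4, which signals through its receptor and the transcription factor STAT6, are known to release the Ccr3 ligand Ccl24, which attracts eosinophils, and the Ccr4 ligands Ccl17 and Ccl22, which attract type 2 helper and regulatory T cells.

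The members lay in 4 places of the mouse genome, given here in GRCm38 (mm10) coordinates of the GENCODE annotation. On chromosome 11, Ccl2 (82035571 to 82037453, plus strand), Ccl7 (82045712 to 82047525, plus) and Ccl12 (82101845 to 82103400, plus) formed a cluster that also holds the non-members Ccl11 and Ccl8. Further along the same chromosome lay Ccl9 (83572919 to 83578636, minus), Ccl6 (83587882 to 83593087, minus), Ccl3 (83647844 to 83649355, minus) and Ccl4 (83662584 to 83664683, plus). Ccl22 (94745590 to 94751699, plus) and Ccl17 (94810453 to 94812036, plus) were neighbours on chromosome 8, and Ccl24 (135569937 to 135573049, minus) lay on chromosome 5. Coding sequences were most alike in Ccl6 and Ccl9 (70.5% of aligned bases identical), Ccl2 and Ccl12 (69.7%) and Ccl3 and Ccl4 (69.6%). No 50-base word sampled from the transcripts of 9 members was shared with another gene, and 2.03% of those of Ccl9 were, so reads of the members could be told apart.

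RefSeq promoter windows of GRCm38.p6 were matched for 6 of the 10 members, with Ccl2, Ccl7, Ccl4 and Ccl24 not listed. The 250 bases upstream of the RefSeq start are shown, 5′ to 3′ on the gene's own strand, for Ccl17 and Ccl22 as neighbouring type 2 chemokines, Ccl12 as an attractant that rose at 3 h and Ccl3 as a ligand that fell at both times. RefSeq and GENCODE starts differ for Ccl22 and Ccl3. The Ccl22 window, up to 94745683, runs past the GENCODE start at 94745590, so its last part lies within the gene as placed above. Capitals mark matches to the STAT dimer patterns TTCNNNNGAA and TTCNNNGAA, which read the same on both strands, or to the NF-kB site pattern, which was searched on both strands.
Ccl17 (chr8:94810203-94810452, plus): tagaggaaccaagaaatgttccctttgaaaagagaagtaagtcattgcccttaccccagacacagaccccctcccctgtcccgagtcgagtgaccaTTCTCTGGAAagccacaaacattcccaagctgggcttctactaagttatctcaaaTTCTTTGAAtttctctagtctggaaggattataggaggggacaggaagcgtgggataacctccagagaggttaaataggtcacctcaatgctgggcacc
Ccl22 (chr8:94745434-94745683, plus): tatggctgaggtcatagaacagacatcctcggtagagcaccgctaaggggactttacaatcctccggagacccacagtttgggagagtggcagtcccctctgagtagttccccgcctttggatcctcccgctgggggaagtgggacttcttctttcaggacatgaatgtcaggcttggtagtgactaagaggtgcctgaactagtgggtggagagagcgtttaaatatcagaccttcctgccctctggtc
Ccl12 (chr11:82101595-82101844, plus): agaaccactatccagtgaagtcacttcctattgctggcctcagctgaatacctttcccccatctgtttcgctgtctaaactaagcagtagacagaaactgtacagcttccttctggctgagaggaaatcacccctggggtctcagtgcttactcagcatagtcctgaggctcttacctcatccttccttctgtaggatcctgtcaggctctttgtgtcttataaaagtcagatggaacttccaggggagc
Ccl3 (chr11:83649379-83649628, minus): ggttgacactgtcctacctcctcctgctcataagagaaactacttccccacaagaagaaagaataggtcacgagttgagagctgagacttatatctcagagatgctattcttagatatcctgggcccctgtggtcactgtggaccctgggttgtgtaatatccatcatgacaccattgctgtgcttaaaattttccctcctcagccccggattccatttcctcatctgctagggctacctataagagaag
Ccl17 held TTCTCTGGAA, which began 154 bases before the start, and TTCTTTGAA, which began 99 bases before it and did not overlap the other. Among the windows not printed, Ccl9 held the NF-kB match GGAAAGCCCC beginning 35 bases before its start, and Ccl6 held none of the patterns. Of 32851 windows of this length, 5.85% held TTCNNNNGAA, 7.02% held TTCNNNGAA and 3.90% held the NF-kB pattern, so matches are described only.

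The deposited tables give each group as the average of 2 libraries in CPM, a read count scaled to library size, and the read steps in these averages allowed 99.1% of 171808 values above 0 to be separated into the counts of a deeper and a shallower library. Reads in genes numbered 15961676 to 27644134 for the libraries of the antagonist experiment and 5446997 to 16678446 for those of the memory experiment. Of 120 member values, 111 had 1 solution, 3 were settled as the most even of a few, and 6 were not separated and entered as the group mean. For those 6, SEs, intervals and p-values hold no spread between the libraries of that group. All 8 macrophage markers were present in every group, summing to 17584.5 to 39178 CPM as antagonist group means and 12375.6 to 43605.1 CPM as memory group means. The deeper WT second library stood apart, with 1083 CPM summed over 5 fibroblast markers, led by Col1a1 at 492 CPM, against 37.5 CPM in the shallower WT second library and 0.139 to 9.83 CPM in the other memory libraries. It also had 144.5 CPM summed over neutrophil markers, against 47.3 CPM in the shallower and 18.3 to 81.0 CPM in the others, and 1.83 CPM of mast cell and basophil markers, against 0 CPM in the shallower and 0 to 0.340 CPM in the others. Libraries also differed in how reads were given to genes with near-identical copies, and all 8 KO libraries were of the kind with low counts of such genes (the low kind) but only 1 of 8 WT libraries, the shallower washed library. Counting kind and genotype could therefore not be told apart outside the washed groups. Pparg itself averaged 21.1 CPM in unstimulated KO and 23.0 CPM in unstimulated WT cells (log2 ratio -0.12, SE 0.12, limma adjusted p = 0.55), and since the deleted part is not known, its reads do not check the knockout.

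**Figure D1:**
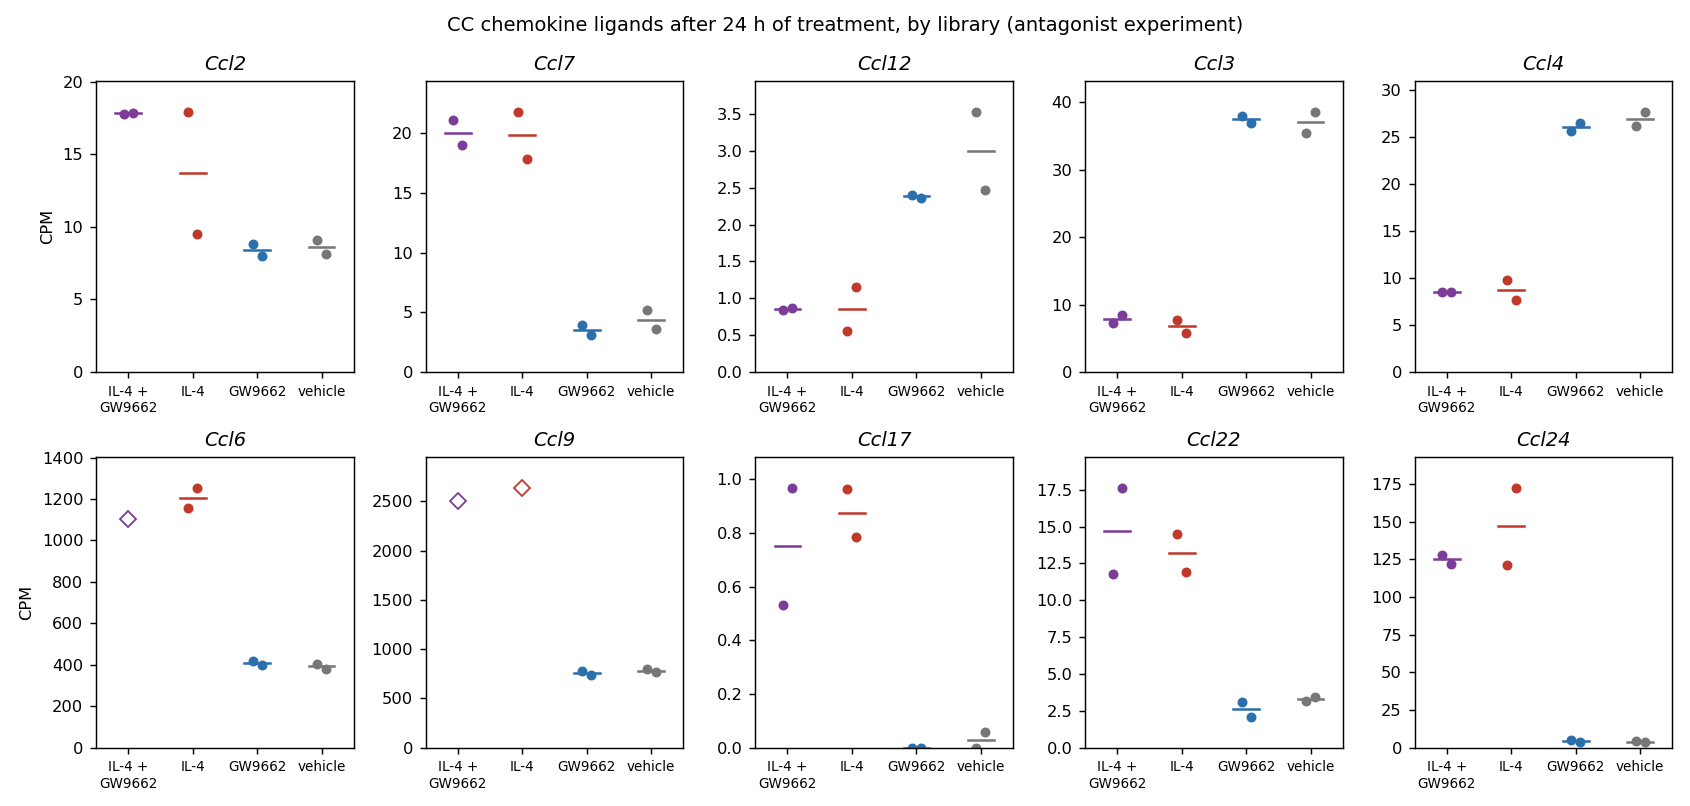
Level of each member in CPM (y axis, from 0, a separate scale for each gene) in the 4 antagonist groups, with a point per library and a line at the group mean, or an open diamond at the group mean where the libraries were not separated. Points of the IL-4 groups, with or without GW9662, lie away from those of the GW9662 and vehicle groups for 9 members. For Ccl9 in both IL-4 groups and Ccl6 in IL-4 with GW9662 these are group means, so the place of the libraries is not known. For Ccl2 the IL-4 libraries at 17.9 and 9.53 CPM lie apart.

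After 24 h of IL-4, the type 2 chemokines Ccl24 and Ccl22, the pair Ccl6 and Ccl9 and the attractant Ccl7 rose, and the MIP-1 ligands Ccl3 and Ccl4 fell. Genes were tested where either group of a comparison averaged 1 CPM or more, which 9 members did. Of these, 5 were called higher and 2 lower by limma at an adjusted p under 0.05, where 17.6% of 11140 genes tested were called, 9.51% higher and 8.1% lower. Summed markers also differed between these groups. Those of macrophages were 17838 CPM in the IL-4 group and 39178 CPM in the vehicle group, led by Lyz2, and without Lyz2 they were 11428.8 and 15905 CPM. Those of neutrophils were 161 CPM in the IL-4 group and 295 CPM in the vehicle group, and those of endothelium were 278 and 18.9 CPM, led by Vwf at 256.3 and 11.3 CPM. Their part in the results was not tested. The median log2 ratio was 1.62 over those 9 members and -0.02 over all genes tested. Log2 ratios are on the log2(CPM + 1) scale, so the change of a gene near 1 CPM is understated.

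Ccl24, the eosinophil attractant also called eotaxin-2, had 121 and 172 CPM in IL-4 libraries, against 4.15 and 4.06 CPM in vehicle libraries. Its groups did not overlap, and it rose by the largest ratio of the 9 members (log2 ratio 4.83, SE 0.27, limma adjusted p = 7.41e-05). Ccl22, a Ccr4 ligand, had 14.5 and 11.9 CPM in IL-4 libraries, against 3.17 and 3.47 CPM in vehicle libraries. These too were apart, but the call was close to the threshold (log2 ratio 1.71, SE 0.47, limma adjusted p = 0.043) and was lost with 0.25 CPM added (0.056), with no filter (0.086), with TMM scaling (0.051) or without the deeper or the shallower vehicle library (0.104 and 0.0828). Ccl17, the other Ccr4 ligand, was low throughout, with 21 and 13 reads in IL-4 libraries (0.966 and 0.784 CPM) against 0 and 1 read in vehicle libraries. It was below the filter and not tested, and its reads per library total were 36.8 times those of vehicle, with an exact 95% counting interval of 6.17 to 1494.2 that covers counting error only.

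Ccl6 and Ccl9 encode ligands of Ccr1 that mouse myeloid cells make at high levels. Ccl6 had 1157 and 1253 CPM in IL-4 libraries, the more even of 2 possible solutions, against 405 and 379 CPM in vehicle libraries. Ccl9 averaged 2637.5 CPM in the IL-4 group, whose libraries were not separated, against 796 and 766 CPM in vehicle libraries. Both rose, by log2 ratios of 1.62 (SE 0.16, limma adjusted p = 0.00109) for Ccl6 and 1.76 (SE 0.18, limma adjusted p = 0.00238) for Ccl9. The IL-4 group of Ccl9 entered as its mean, so its SE and p-value hold no spread between the IL-4 libraries. Its 6 possible separations in that group ran from 2565 and 2710 CPM to 65.8 and 5209 CPM. Per kilobase of transcript Ccl6 and Ccl9 were at like levels in each antagonist group, with 837 and 877 CPM per kb in the IL-4 group, against 272 and 259.7 CPM per kb in the vehicle group. Next in the IL-4 group came Ccl24 at 113 CPM per kb, then Ccl7 at 24.7 and Ccl2 at 16.9 CPM per kb. In the memory experiment Ccl6 and Ccl9 were less alike, with 145 and 303 CPM per kb in WT unstimulated and 619 and 418 CPM per kb in WT washed cells.

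The MIP-1 ligands moved the other way. Ccl3 had 7.68 and 5.85 CPM in IL-4 libraries, against 35.5 and 38.5 CPM in vehicle libraries. It fell by 2.30 on the log2 scale (SE 0.21, limma adjusted p = 5.20e-04), with no overlap of the groups. Ccl4, its neighbour on chromosome 11, had 9.75 and 7.66 CPM in IL-4 libraries, against 26.2 and 27.6 CPM in vehicle libraries. It fell by 1.53 (SE 0.19, limma adjusted p = 0.00152).

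The monocyte attractants did not move together at 24 h. Ccl7 had 21.8 and 17.9 CPM in IL-4 libraries, against 5.20 and 3.59 CPM in vehicle libraries, and rose (log2 ratio 1.96, SE 0.35, limma adjusted p = 0.00776). Ccl2 had 17.9 and 9.53 CPM in IL-4 libraries, against 9.07 and 8.13 CPM in vehicle libraries, and its ratio of 0.56 (SE 0.27) did not pass (limma adjusted p = 0.217). That value rested on 1 library, being 0.98 without the shallower IL-4 library and 0.14 without the deeper IL-4 library. A lone library lost the low weight of the IL-4 group (0.204), so no p-value is given for such fits of that group. The IL-4 libraries were of different counting kinds, and the ratio of Ccl2 was 1.05 within the high kind and 0.07 within the low kind, with 1 library on each side and no test. Ccl12, a mouse Ccr2 ligand, had 0.552 and 1.15 CPM in IL-4 libraries, against 3.52 and 2.47 CPM in vehicle libraries. These were apart, and the log2 ratio of -1.12 (SE 0.32) lay at the threshold (limma adjusted p = 0.0505). It passed with voom (0.00842), with no group weights (0.00627) and with a term for counting kind (0.00389). Voom and no group weights both drop the low weight of the IL-4 group, so these passes are no support. With 1 library left out the ratio of Ccl12 ran from -1.35 to -0.88.

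Whether the PPARγ antagonist changed these responses was asked by setting IL-4 with GW9662 against IL-4, and GW9662 against vehicle. No member was called in either comparison. For IL-4 with GW9662 against IL-4, 0 of 8 tested members and 0.0% of 10867 genes were called by limma, and 1 gene had an unadjusted p under 0.05. Unchanged genes alone should reach that level in a share of about 0.05, so this test was conservative. The IL-4 libraries carried a low weight in it (0.204, against 1.47 with GW9662). Its lack of calls therefore does not show that GW9662 had no effect. For GW9662 against vehicle, 0 of 9 members and 0.0% of 10938 genes were called by limma, and 257 genes had an unadjusted p under 0.05. Voom called 0 of the members in both comparisons.

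In the presence of IL-4, Ccl24 had 128 and 122 CPM with GW9662, against 121 and 172 CPM without it, so the ranges overlapped. The log2 ratio was -0.21, with a 95% interval of -0.83 to 0.41. Ccl3 had 7.32 and 8.42 CPM with GW9662, against 7.68 and 5.85 CPM without it, which also overlapped (log2 ratio 0.20, 95% interval -0.29 to 0.69). For Ccl2, both libraries with GW9662 (17.8 and 17.9 CPM) stood near the higher of the IL-4 libraries (17.9 and 9.53 CPM). The ratio of 0.42 (interval -0.21 to 1.04) did not pass. It was 0.84 without the deeper and -0.01 without the shallower IL-4 library, so it rested on which IL-4 library was used. The narrowest intervals were those of Ccl6 (-0.50 to 0.25) and Ccl4 (-0.46 to 0.40), and the widest that of Ccl22 (-0.95 to 1.20). Differences of up to about these sizes could not be detected here.

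Without IL-4, Ccl24 had 4.81 and 3.80 CPM with GW9662, against 4.15 and 4.06 CPM in vehicle libraries, and Ccl3 had 38.0 and 36.9 CPM, against 35.5 and 38.5 CPM. The largest absolute ratio of GW9662 over vehicle was that of Ccl22 (-0.27, SE 0.21). Within GW9662-treated cells the IL-4 response was called for all 9 tested members, 6 higher and 3 lower, where 51.7% of 11130 genes were called, 26.5% higher and 25.3% lower. Ccl24 had 128 and 122 CPM in libraries with IL-4 and GW9662, against 4.81 and 3.80 CPM with GW9662 alone (log2 ratio 4.58, SE 0.12, limma adjusted p = 1.89e-07). Ccl2 rose here (1.00, SE 0.12, limma adjusted p = 2.48e-04), with 17.8 and 17.9 CPM against 8.80 and 8.01 CPM, and Ccl12 fell by 0.86 (SE 0.14, limma adjusted p = 0.00129), with 0.843 and 0.871 CPM against 2.40 and 2.36 CPM. Ccl17 had 12 and 20 reads with IL-4 and GW9662 and none in either GW9662 library, at least 9.55-fold higher per library total when 3 reads over the group are taken as the floor. The call differs from the vehicle arm for Ccl2 and Ccl12. The test of the difference between the arms called 0 of 9 members and 0.0% of 11232 genes by limma (13 at an unadjusted p under 0.05). Differences were 0.45 (95% interval -0.24 to 1.13) for Ccl2 and 0.25 (-0.56 to 1.06) for Ccl12. With so few genes under 0.05 this test too was conservative, and its lack of calls does not show that the arms were alike.

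**Figure D2:**
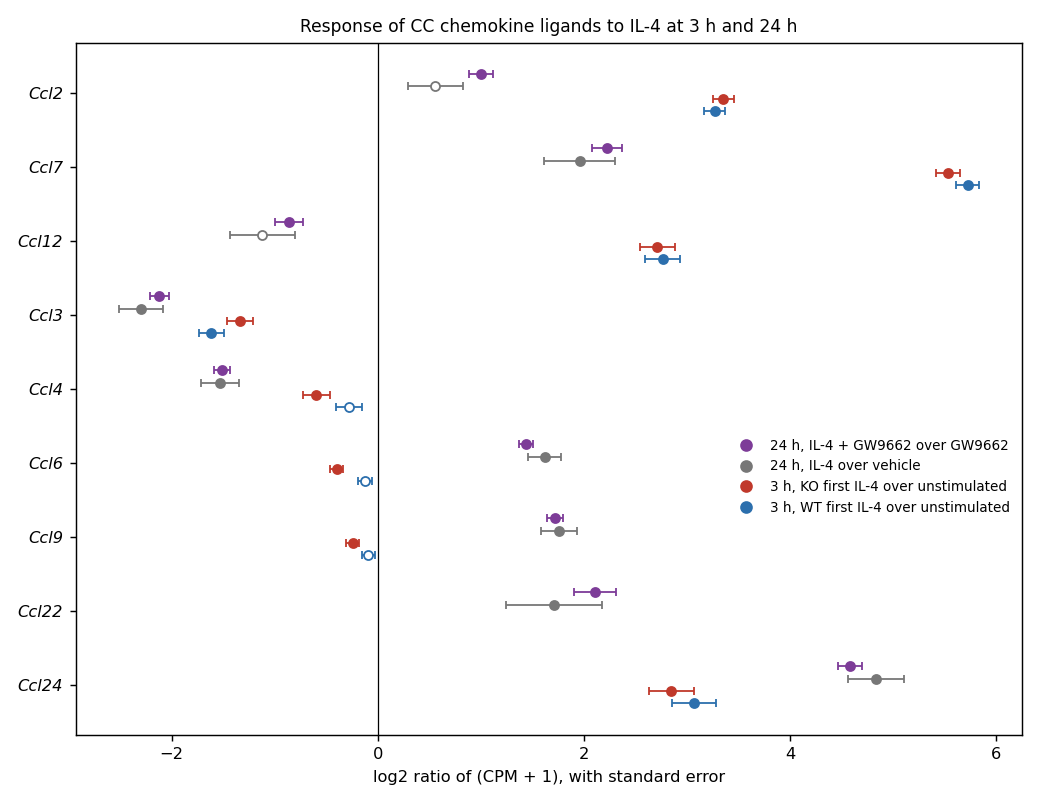
Log2 ratio of CPM plus 1 (x axis) for 9 members in 4 IL-4 comparisons, with bars of 1 standard error; filled points passed an adjusted p under 0.05 and open points did not, and a missing point was below the filter. The 3 h ratios of Ccl2 (3.35 in KO and 3.27 in WT) lie right of its 24 h ratios, while those of Ccl6 and Ccl9 are above 1.4 at 24 h and below 0 at 3 h.

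A first exposure of 3 h raised all 3 monocyte attractants and Ccl24 and lowered Ccl3, in both genotypes. In KO cells 4 of 8 tested members were called higher and 4 lower, where 43.6% of 11208 genes were called, 21.2% higher and 22.4% lower. In WT cells 4 of 8 were called higher and 1 lower, where 49.4% of 11345 genes were called, 24.5% higher and 24.9% lower. Calls were thus frequent among all genes, and the size of the ratios says more than the number of calls.

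Ccl7 had 449 and 497 CPM in KO first IL-4 libraries, against 9.40 and 9.09 CPM in KO unstimulated libraries. In WT cells it averaged 336 CPM at the first IL-4, where both possible separations gave libraries of 314 to 358 CPM, against 5.84 and 4.97 CPM unstimulated. It had the largest ratio of the members at 3 h in each genotype (log2 ratio 5.53, SE 0.12, limma adjusted p = 2.47e-14 in KO and 5.72, SE 0.11, limma adjusted p = 1.06e-14 in WT). Ccl2 had 318 and 360 CPM in KO first IL-4 libraries, against 30.2 and 34.4 CPM unstimulated, and rose (3.35, SE 0.10, limma adjusted p = 3.63e-13). In WT cells it had 233 and 235 CPM at the first IL-4, against 25.2 and 21.8 CPM unstimulated, and rose by a like ratio (3.27, SE 0.10, limma adjusted p = 3.54e-13). Ccl12 followed at a much lower level, with 13.6 and 11.8 CPM in KO and 11.5 and 11.7 CPM in WT first IL-4 libraries, against 1.00 and 1.17 CPM in KO and 0.939 and 0.773 CPM in WT unstimulated libraries. It rose by 2.71 in KO (SE 0.17, limma adjusted p = 2.01e-09) and 2.76 in WT (SE 0.17, limma adjusted p = 1.10e-09). Ccl2 and Ccl12 thus rose at 3 h in the memory experiment, while at 24 h in the antagonist experiment Ccl2 did not pass and Ccl12 was below vehicle. The tables were scaled separately and share no samples, and the difference between the times was not tested.

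Of the type 2 chemokines only Ccl24 reached the filter in the memory experiment. It had 14.2 and 12.8 CPM in KO first IL-4 libraries, against 1.55 and 0.583 CPM in KO unstimulated libraries, and rose (2.85, SE 0.22, limma adjusted p = 2.01e-08). WT libraries had 11.5 and 11.1 CPM, against 0.626 and 0.331 CPM, and rose (3.06, SE 0.21, limma adjusted p = 5.47e-09). Ccl22 had 0 to 14 reads and Ccl17 0 to 3 reads in the memory libraries. Ccl22 had 0 and 3 reads in KO first IL-4 libraries and 2 and 2 reads in KO unstimulated libraries, and 6 and 11 reads in WT first IL-4 libraries against 3 and 4 reads in WT unstimulated libraries. Ccl17 had no read in any of the 8 KO libraries, which in these libraries allows up to 0.274 to 0.526 CPM, and 2 and 1 reads in the WT first IL-4 libraries, against none in the WT unstimulated libraries. With no filter limma called it for WT first IL-4 against unstimulated (log2 ratio 0.18, adjusted p = 0.00458) and for KO against WT at the first IL-4 (-0.18, adjusted p = 0.0282), but on 3 reads in all, so no difference is drawn from it.

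The MIP-1 ligands and the Ccl6 and Ccl9 pair gave smaller ratios at 3 h. Ccl3 had 14.9 and 15.4 CPM in KO first IL-4 libraries, against 40.0 and 39.7 CPM unstimulated, and 8.47 and 9.35 CPM in WT, against 30.0 and 28.7 CPM. It fell by 1.34 in KO (SE 0.12, limma adjusted p = 2.05e-07) and by 1.62 in WT (SE 0.12, limma adjusted p = 1.37e-08). Ccl4 fell by 0.60 in KO (17.9 and 20.2 CPM against 29.4 and 29.1 CPM, limma adjusted p = 0.00142), and its WT ratio of -0.28 did not pass (14.4 and 14.3 CPM against 19.1 and 16.2 CPM, limma adjusted p = 0.0783). Ccl6 had 267 and 249 CPM in KO first IL-4 libraries, against 337 and 345 CPM, and fell by 0.40 (limma adjusted p = 1.09e-04), while Ccl9 fell by 0.25 (871 and 805 CPM against 989 and 996 CPM, limma adjusted p = 0.00494). In WT cells their ratios of -0.12 and -0.09 did not pass (limma adjusted p = 0.12 and 0.222). The test of the difference in first response between genotypes called 0 of 8 members by limma, where 0.0348% of 11494 genes were called and 1385 genes had an unadjusted p under 0.05. The members' differences lay between -0.32 (Ccl4, 95% interval -0.70 to 0.07) and 0.28 (Ccl3, -0.09 to 0.65).

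**Figure D3:**
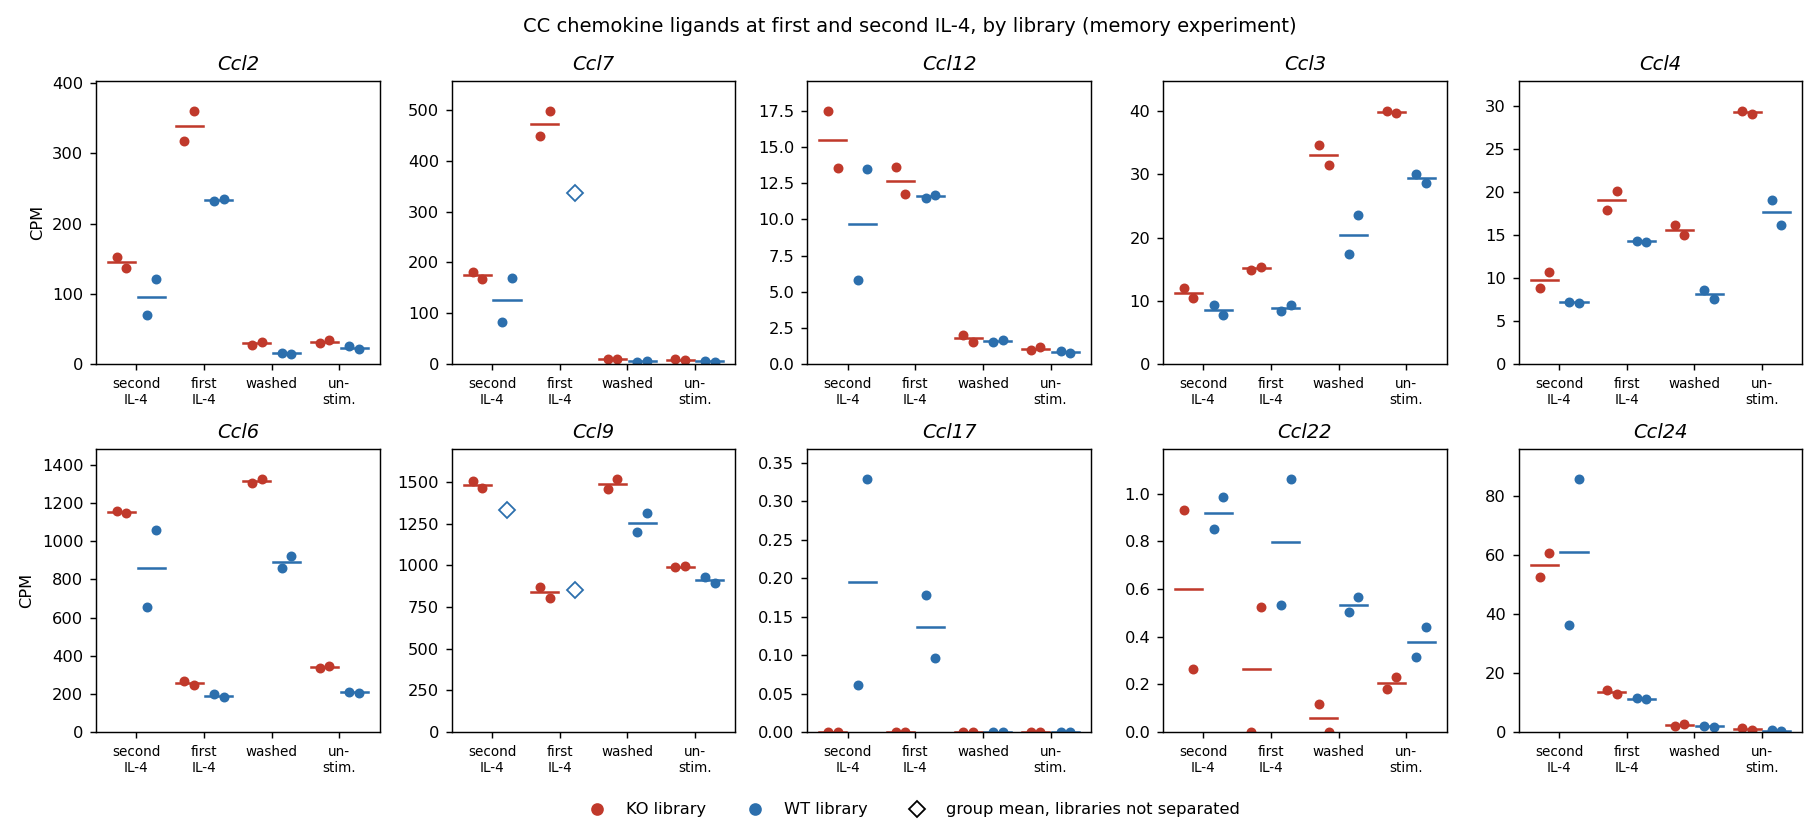
Level of each member in CPM (y axis, from 0, a separate scale for each gene) in the 4 states of the memory experiment, with a point per library, KO left and WT right in each state, a line at the group mean and an open diamond where libraries were not separated. Ccl6 is high in the second IL-4 and washed groups, Ccl2 and Ccl7 are highest at the first IL-4, and Ccl24 at the second IL-4, where the WT libraries lie apart at 36.4 and 85.6 CPM.

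Washed cells, 24 h after IL-4 was removed, were set against unstimulated cells. No matched pretreatment or washout without IL-4 is labelled for the unstimulated groups. Earlier IL-4 therefore cannot be told apart from added culture time and the change of medium. Ccl6, Ccl9 and Ccl24 were called higher, Ccl6 by the largest ratio, and Ccl4 was called lower, in both genotypes. In KO cells 3 of 8 members were called higher and 1 lower, where 19.2% of 11230 genes were called, 9.27% higher and 9.93% lower. In WT cells 3 of 8 were called higher and 3 lower, where 7.21% of 11369 genes were called higher and 6.76% lower. Summed markers of other cells differed between the same groups. Those of endothelium were 79.1 CPM in KO washed and 19.6 CPM in KO unstimulated cells, and 71.6 CPM in WT washed and 17.02 CPM in WT unstimulated cells. Nearly all of this was Vwf, with 77.5 and 18.0 CPM in KO and 69.0 and 14.7 CPM in WT. The endothelial difference was thus that of 1 gene and not of the list. Those of neutrophils were 22.02 CPM in KO washed and 48.5 CPM in KO unstimulated cells, and 27.9 CPM in WT washed and 72.3 CPM in WT unstimulated cells. Their part in these results was not tested.

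Ccl6 had 1307 and 1325 CPM in KO washed libraries, against 337 and 345 CPM in KO unstimulated libraries, and 861 and 921 CPM in WT washed libraries, against 211 and 206 CPM in WT unstimulated libraries. It rose by 1.94 in KO (SE 0.07, limma adjusted p = 1.19e-11) and 2.09 in WT (SE 0.08, limma adjusted p = 1.15e-10), the largest ratios of the members in this comparison. Ccl9 had 1457 and 1517 CPM in KO washed libraries, against 989 and 996 CPM, and 1202 and 1312 CPM in WT, against 932 and 892 CPM. It rose by 0.58 in KO (SE 0.06, limma adjusted p = 1.54e-05) and 0.46 in WT (SE 0.08, limma adjusted p = 8.87e-04). Ccl24 had 2.15 and 2.82 CPM in KO washed libraries, against 1.55 and 0.583 CPM, and 2.21 and 1.82 CPM in WT, against 0.626 and 0.331 CPM. It rose by 0.79 in KO (limma adjusted p = 0.02) and 1.03 in WT (limma adjusted p = 0.0165). These libraries held 3 to 22 reads of Ccl24, and both calls were lost with no filter (0.0654 in KO and 0.0634 in WT), with voom (0.683 and 0.446) and with no group weights (0.252 and 0.101). Leaving out a library ended the KO call in 3 of 4 cases (ratios of 0.44 to 0.93) and the WT call without either unstimulated library (1.17 and 0.89).

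Ccl4 had 16.2 and 15.1 CPM in KO washed libraries, against 29.4 and 29.1 CPM, and 8.63 and 7.60 CPM in WT, against 19.1 and 16.2 CPM. It fell by 0.87 in KO (SE 0.13, limma adjusted p = 2.24e-04) and by 1.03 in WT (SE 0.16, limma adjusted p = 3.51e-04). Ccl2 and Ccl3 were called lower in WT and not in KO, with 16.1 and 14.9 CPM against 25.2 and 21.8 CPM for Ccl2 (-0.57, limma adjusted p = 0.00606) and 17.4 and 23.6 CPM against 30.0 and 28.7 CPM for Ccl3 (-0.51, limma adjusted p = 0.0339). The KO ratios of Ccl2 and Ccl3 were -0.10 and -0.26, and the difference between genotypes in this comparison was not tested. Both WT calls were lost with voom and with no group weights, under which 3 members were called in place of 6, and without the deeper WT unstimulated library. That of Ccl3 was also lost without the shallower WT unstimulated (0.122) or the deeper WT washed library (-0.30, 0.287). Ccl7 and Ccl12 passed in neither genotype.

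**Figure D4:**
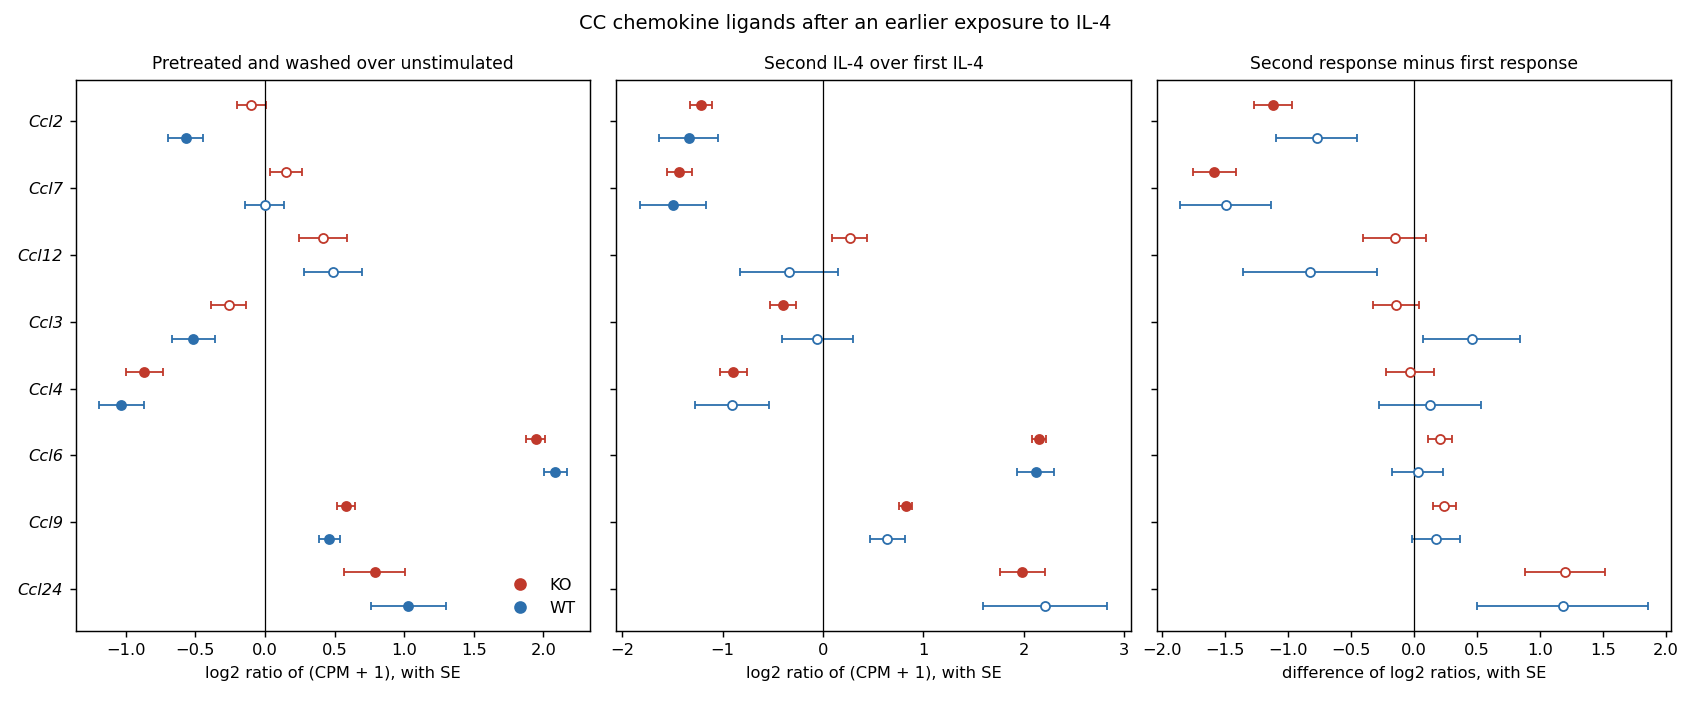
Log2 ratios of CPM plus 1 (x axis) for 8 members, KO above WT, for washed over unstimulated, the second over the first IL-4, and the second response minus the first response; bars are 1 standard error, filled points passed an adjusted p under 0.05 and open points did not. In the middle panel Ccl2 and Ccl7 lie left of 0 and Ccl6, Ccl9 and Ccl24 right of 0, with wider bars in WT.

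Cells that met IL-4 again carried less Ccl2 and Ccl7 and more Ccl6 than cells that met it for the first time, in both genotypes. Ccl24 and Ccl9 were called higher and Ccl4 lower in KO cells only. Their WT ratios had the same directions and like sizes but did not pass. No matched washout is labelled for the first IL-4 groups, so here too earlier IL-4 and added culture time cannot be told apart. In KO cells 3 of 8 members were called higher and 4 lower at the second against the first IL-4, where 12.4% of 11190 genes were called higher and 9.64% lower. In WT cells 1 of 8 was called higher and 2 lower, where 1.09% of 11880 genes were called, 0.707% higher and 0.379% lower. The WT second libraries were given a low weight because they differed from each other, and the deeper of them carried the fibroblast markers given above. WT values are therefore also given without each of them where that changed a call or a value. A lone library was assumed to vary like the other groups and lost the low weight, so calls gained in this way are no support. The part of other cells in these values was not tested. In bulk RNA, fewer cells of a type and less RNA per cell cannot be told apart.

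Ccl2 had 153 and 137 CPM in KO second IL-4 libraries, against 318 and 360 CPM in KO first IL-4 libraries. It fell by 1.22 (SE 0.11, limma adjusted p = 8.05e-07), and the groups were well apart. WT cells had 69.4 and 122 CPM of it, against 233 and 235 CPM, and it fell by 1.34 (SE 0.29, limma adjusted p = 0.0425). The WT ratio was -0.94 without the deeper second library and -1.74 without the shallower. The WT call was lost with 0.25 CPM added (0.0631), with no filter (0.136), and without the deeper (0.116) or shallower (0.122) WT first IL-4 library.

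Ccl7 had 182 and 168 CPM in KO second IL-4 libraries, against 449 and 497 CPM in KO first IL-4 libraries, and fell by 1.43 (SE 0.12, limma adjusted p = 8.23e-07). In WT cells it had 83.1 and 169 CPM, against a mean of 336 CPM, and had a log2 ratio of -1.496 (SE 0.33, limma adjusted p = 0.0436). Without the deeper WT second library the ratio was -0.99 and without the shallower -2.00. The call was lost with no filter and with 0.25 CPM added, and since the WT first mean was not separated, leaving out either of those libraries is no check of its value. Ccl12, the third attractant, had 17.5 and 13.6 CPM in KO second IL-4 libraries, against 13.6 and 11.8 CPM, and 5.84 and 13.5 CPM in WT, against 11.5 and 11.7 CPM. It did not pass in KO (0.26, limma adjusted p = 0.321) or in WT (-0.34, limma adjusted p = 1.00). In WT the sign turned with the library left out (0.20 without the deeper and -0.88 without the shallower second library).

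Ccl24 went the other way, with 52.4 and 60.5 CPM in KO second IL-4 libraries, against 14.2 and 12.8 CPM in KO first IL-4 libraries. It rose by 1.99 (SE 0.23, limma adjusted p = 1.08e-05). WT cells had 36.4 and 85.6 CPM, against 11.5 and 11.1 CPM, so both second libraries were above both first libraries, but the ratio of 2.21 (SE 0.62) did not pass (limma adjusted p = 0.104). The ratio was 2.82 without the deeper and 1.61 without the shallower WT second library. It passed with voom (0.00290), with no group weights (0.00186) and with a term for counting kind (0.00173). Voom and no group weights both drop the low weight of the WT second group (0.097), so these passes are no support. Every library compared was of the high kind, so the term is no check of the kind.

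Ccl6 had 1161 and 1145 CPM in KO second IL-4 libraries, the most even of 3 solutions, against 267 and 249 CPM in KO first IL-4 libraries, and rose by 2.15 (SE 0.07, limma adjusted p = 5.27e-12). In WT cells it had 656 and 1059.6 CPM, against 199 and 184 CPM, and rose by 2.12 (SE 0.19, limma adjusted p = 3.02e-05), or by 2.46 and 1.77 without the deeper and the shallower second library. Ccl9 had 1506 and 1463 CPM in KO, against 871 and 805 CPM, and rose by 0.83 (SE 0.06, limma adjusted p = 6.92e-07). Its WT means were 1333 CPM at the second and 855 CPM at the first IL-4, and the ratio of 0.64 (SE 0.17) did not pass (limma adjusted p = 0.104). Leaving out a WT second library is no check of it, since the libraries were not separated and the mean stood for the group. All 3 possible separations of the WT second mean of Ccl9 put the deeper library lower (408 to 1005 CPM) than the shallower (1662 to 2258 CPM). Ccl4 fell in KO, with 8.85 and 10.8 CPM against 17.9 and 20.2 CPM (-0.89, SE 0.14, limma adjusted p = 1.65e-04), and had a like WT ratio that did not pass (-0.90, SE 0.37, limma adjusted p = 0.353), with 7.24 and 7.13 CPM against 14.4 and 14.3 CPM. That ratio was -0.91 without the deeper and -0.89 without the shallower second library. Ccl3 was called lower in KO, with 11.99 and 10.5 CPM against 14.9 and 15.4 CPM (-0.40, SE 0.13, limma adjusted p = 0.0353), a call lost whichever of the 4 libraries was left out, with voom and with no group weights. In WT it had 9.31 and 7.78 CPM against 8.47 and 9.35 CPM, which overlapped (-0.06, SE 0.35).

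Ratios of the second to the first IL-4 include what the washed cells already held, so the second response (second IL-4 over washed) was set against the first response (first IL-4 over unstimulated). On its own the second response was called higher for Ccl2, Ccl7, Ccl12 and Ccl24 in both genotypes. In KO cells 4 of 8 members were called higher and 3 lower, where 35.0% of 11282 genes were called, 18.8% higher and 16.2% lower, and in WT cells 4 of 8 were called higher and none lower, where 7.6% of 11958 genes were called, 3.99% higher and 3.61% lower. Ccl7 had 182 and 168 CPM in KO second IL-4 libraries, against 9.93 and 10.8 CPM in KO washed libraries (log2 ratio 3.95, SE 0.12), and 83.1 and 169 CPM in WT, against 4.62 and 6.24 CPM (4.23, SE 0.34). Ccl24 rose by 4.05 in KO (limma adjusted p = 9.15e-10) and 4.24 in WT (limma adjusted p = 9.84e-04), or by 4.85 and 3.64 without the deeper and the shallower WT second library. Ccl12 rose by 2.56 in KO (limma adjusted p = 1.17e-08) and 1.94 in WT (0.0285), or by 2.48 and 1.39 without those libraries. Ccl6 and Ccl9 had small ratios over their washed levels. Ccl6 gave -0.19 in KO (limma adjusted p = 0.0414, a call lost whichever of the 4 libraries was left out, with adjusted p from 0.139 to 0.273) and -0.09 in WT, and Ccl9 gave -0.00 in KO and 0.09 in WT.

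The second response was smaller than the first for 2 of 8 members in KO cells, where 1.3% of 11435 genes were called, 0.84% higher and 0.463% lower. These were Ccl2 (difference of log2 ratios -1.12, SE 0.15, limma adjusted p = 8.59e-04) and Ccl7 (-1.58, SE 0.17, limma adjusted p = 1.64e-04), and both calls were lost with voom (0.799 and 0.819) and with no group weights (0.434 and 0.425). In WT cells 0 of 8 members were called, where 0.0248% of 12074 genes were called and 885 genes had an unadjusted p under 0.05. The WT differences were -0.77 (SE 0.32, limma adjusted p = 0.568) for Ccl2 and -1.49 (SE 0.36, limma adjusted p = 0.158) for Ccl7. Voom also called none of the 8 in WT. Leaving out a WT second library removed the low weight of the group, so calls gained in this way are no support. Without the deeper WT second library, Ccl7 gave -0.99 and Ccl2 -0.37, and without the shallower, Ccl7 gave -2.00 and Ccl2 -1.17. Ccl24 had differences of like size and opposite sign, 1.20 in KO (SE 0.32, limma adjusted p = 0.0802) and 1.18 in WT (SE 0.68, limma adjusted p = 0.867), neither of which passed. That of WT was 1.79 without the deeper and 0.57 without the shallower WT second library. For Ccl6 and Ccl9 the differences were 0.21 and 0.24 in KO and 0.03 and 0.18 in WT, and none passed.

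Whether the second against first difference depended on the genotype was tested directly, and limma called 0 of 8 members, where 0.00834% of 11991 genes were called and 769 genes had an unadjusted p under 0.05. The KO minus WT difference was 0.12 for Ccl2 (95% interval -0.54 to 0.79), 0.07 for Ccl7 (-0.68 to 0.81), 0.04 for Ccl6 (-0.38 to 0.46) and -0.23 for Ccl24 (-1.63 to 1.18). These values turned sign with the WT second library left out. Without the deeper, the difference was -0.28 for Ccl2, -0.44 for Ccl7, -0.31 for Ccl6 and -0.83 for Ccl24. Without the shallower, it was 0.52 for Ccl2, 0.57 for Ccl7, 0.38 for Ccl6 and 0.38 for Ccl24. For Ccl12 it was 1.14 without the shallower, against 0.60 with all libraries. The direction for Ccl2, Ccl7, Ccl6 and Ccl24 therefore rested on which WT second library was used.

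Between genotypes in the same state, members were called higher in KO cells in 3 of the 4 states and lower in none. In unstimulated cells 5 of 8 were called higher, where 17.4% of 11280 genes were called, 7.16% higher and 10.2% lower. At the first IL-4 4 of 8 were called higher, where 9.03% of 11245 genes were called, 1.52% higher and 7.51% lower, and in washed cells 5 of 8, where 2.89% of 11347 genes were called, 1.26% higher and 1.63% lower. At the second IL-4 0 of 8 were called, where 0.0168% of 11894 genes were called and 1303 genes had an unadjusted p under 0.05. A lone WT second library lost the low weight of its group, so calls gained by leaving out the other are no support. Some ratios moved with the WT library kept. Ccl2, for instance, gave 0.65 with both, 0.25 without the deeper and 1.05 without the shallower WT second library.

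Ccl6 was called in all 3 of these states, with 337 and 345 CPM in KO and 211 and 206 CPM in WT unstimulated libraries (log2 ratio 0.71, SE 0.06, limma adjusted p = 7.00e-06). Ccl7 had 9.40 and 9.09 CPM in KO and 5.84 and 4.97 CPM in WT unstimulated libraries (0.68, SE 0.11, limma adjusted p = 5.49e-04), and 9.93 and 10.8 CPM in KO and 4.62 and 6.24 CPM in WT washed libraries (0.84, SE 0.15, limma adjusted p = 0.00896). Ccl2 had 28.0 and 32.3 CPM in KO and 16.1 and 14.9 CPM in WT washed libraries (0.92, SE 0.13, limma adjusted p = 0.00164). Ccl4 had 29.4 and 29.1 CPM in KO and 19.1 and 16.2 CPM in WT unstimulated libraries (0.70, SE 0.13, limma adjusted p = 9.20e-04), and Ccl3 and Ccl2 were also called there (0.43 and 0.44). At the first IL-4, Ccl2, Ccl7, Ccl6 and Ccl3 were called, with ratios of 0.43 to 0.71. Ccl9, Ccl12 and Ccl24 were called in no state, with ratios of -0.03 to 0.72.

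The genotypes also differed in marker levels. Lyz2, a lysozyme gene of myeloid cells, averaged 14.5 to 41.8 CPM in the KO groups and 21965.8 to 30727.3 CPM in the WT groups. The 8 macrophage markers, Lyz2 among them, summed to 12375.6 to 15245.3 CPM in KO and 30766.8 to 43605.1 CPM in WT, and the 7 without Lyz2 to 12361.1 to 15203.5 CPM in KO and 8800.98 to 12877.8 CPM in WT. The group sums of 5 neutrophil markers were 19.98 to 48.5 CPM in KO and 27.9 to 95.9 CPM in WT. Their part in these results was not tested. Genotype and counting kind cannot be told apart in the unstimulated and first IL-4 groups. With a term for the kind, only 1 member (Ccl6, 0.61, limma adjusted p = 0.0372) of 6 that could be fitted was called in unstimulated cells and none at the first IL-4. That term was estimated from the pair of WT washed libraries alone, the only memory group with both kinds. It therefore cannot separate kind from genotype in those states. Voom called 1 member in unstimulated cells and none at the first IL-4. In the washed groups, where 1 WT library was of the low kind, ratios within that kind (2 KO libraries, 1 WT library, no test) were 0.97 for Ccl2, 0.95 for Ccl4, 0.65 for Ccl7, 0.51 for Ccl6 and 0.47 for Ccl3. With the term, Ccl2, Ccl4 and Ccl6 were called there, and voom called 1 member. The counts also moved with single libraries. In unstimulated cells 2 members were called without the shallower WT library and 1 without either KO library, and at the first IL-4 1 was called without the deeper WT library and 2 without the shallower WT or the shallower KO library. In washed cells 3 were called without the deeper and 1 without the shallower KO library.

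Other genes of the pathway were read from lists, whose counts stand beside the shares of all genes called, which were 17.6% at 24 h, 43.6% in KO and 49.4% in WT at 3 h, and, at the second against the first IL-4, 12.4% higher and 9.64% lower in KO. Of 14 other CC ligands, 2 were tested at 24 h and 1 was called, Ccl8, a gene from the cluster of Ccl2. It had 16.7 and 16.2 CPM in IL-4 libraries, against 4.19 and 3.53 CPM in vehicle libraries (log2 ratio 1.85, limma adjusted p = 0.00754). Of the CC receptors and scavengers, 6 of 15 were tested at 24 h and at 3 h, with 1 called lower at 24 h and 5 called lower at 3 h in KO and in WT. Ccr2, the receptor of Ccl2 and Ccl7, fell at 3 h by 1.69 in KO (17.2 and 17.0 CPM against 53.8 and 61.4 CPM) and by 1.59 in WT (25.05 and 30.2 CPM against 83.7 and 85.9 CPM), and at 24 h by 2.11 (49.2 and 23.4 CPM against 150.38 and 150.43 CPM). At the second against the first IL-4 in KO cells, 3 of 5 tested receptors were called higher, among them Ccr1 (log2 ratio 0.91) and Ccr2 (0.45), while limma called 0 of 5 in WT. Ccl8 was higher in the same KO comparison (1.67, limma adjusted p = 1.91e-04). Ccr1, a receptor of Ccl3, Ccl6 and Ccl9, fell in WT cells by 0.85 at 3 h.

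Of 16 other chemokines, 7 were tested, with none called higher, 4 lower at 24 h and 5 lower at 3 h in WT (4 in KO). Cxcl10, an interferon-induced attractant of T cells, had 0.552 and 0.121 CPM in IL-4 libraries, against 30.5 and 23.2 CPM in vehicle libraries (-4.39, limma adjusted p = 4.01e-04). Pf4 (-1.82) and the neutrophil attractant Cxcl2 (-1.66) also fell at 24 h, and Cxcl2 (-1.55), Cxcl10 (-1.41) and Cxcl16 (-0.58) fell in WT at 3 h. Of 14 NF-kB pathway genes, 0 were called higher and 4 lower at 24 h, and 5 higher and 4 lower at 3 h in WT, where 24.5% of all genes were called higher and 24.9% lower. Among them Nfkbiz fell at both times (-3.96 at 24 h and -3.53 at 3 h in WT). Bcl3 (-0.92) and Relb (-0.94) fell at 24 h, while at 3 h in WT Bcl3 fell by 1.01 and the subunit Nfkb1 rose (0.94). Of 10 IL-4 signalling genes, 3 were called higher and 2 lower at 24 h and 4 higher and 2 lower at 3 h in WT. The feedback inhibitors Socs1 and Cish rose by 5.19 and 5.56 at 24 h and by 7.14 and 6.66 at 3 h in WT, the receptor chain Il4ra rose by 1.79 at 3 h in WT, and the receptor chain Il13ra1 fell by 3.13 at 24 h.

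The genes most like 3 of the members over the means of the 8 memory groups were found among 816 genes that reached 10 CPM and varied 4-fold. Ccl2 was nearest to Lpxn (Pearson r 0.996), Il4ra (0.988) and Tmcc2 (0.986), Ccl3 to Arap3 (0.964), Map3k9 (0.958) and Sel1l3 (0.958), and Ccl24 to Hebp2 (0.992), Scn3a (0.985) and Pdgfc (0.979). These describe 8 points that share libraries and scaling, with no test. Scn3a averaged 65.8 and 6.26 CPM at the second and first IL-4 in KO and 58.5 and 6.79 CPM in WT, an increase of the same direction as that of Ccl24, while Lpxn averaged 692 and 922 CPM in KO and 585 and 825 CPM in WT, lower at the second as Ccl2 was.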

How the data were processed

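RNA-seq of 24 samples in 12 groups of 2 was read from 2 deposited tables, which hold signal values the authors made as CPM averaged over both samples of a group, per the labels. TopHat2 2.0.7, Cufflinks 2.0.2 and mm10 are named in the submitters' processing notes, with no role given. Other steps of counting are not given in the sources used here.

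Each averaged value was solved for whole reads in a deeper and a shallower library, which carry no replicate number. The separation was tested on simulated data. A value with several solutions was taken as the most even one where only that pair lay within 1.5-fold, and otherwise entered once as the mean, with weight 2. Main tests were limma 3.58.1 (R 4.3.3) fits of log2(CPM + 1) to all libraries of a table, with a trend, 1 weight per group, genes averaging 1 CPM or more in a compared group and Benjamini-Hochberg adjustment over all of them. In simulations the 24 h IL-4 comparison recovered 25.4%, 58.2% and 100% of genes changed 1.5-, 2- and 4-fold. Of its calls, 10.3% were on unchanged genes.

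Alternatives were 0.25 CPM added, no filter, TMM scaling, voom on the separated reads, no group weights, a term for counting kind, and leaving out each library. A count of 3 reads was worth 0.105 to 0.181 CPM, depending on the antagonist library, and 0.183 to 0.526 CPM, depending on the memory library. Members and lists were chosen with earlier results of these data known. All members were named, with the 3 called genes of each other list that had the largest ratios at 24 h or at the WT first IL-4, and the 3 genes most like Ccl2, Ccl3 and Ccl24. A gene that this rule would name is not reported here. Group means of summed markers reached at most 1.58 CPM for T cells, NK cells, mast cells and erythroid cells, 6.69 CPM for B cells, 4.77 CPM for dendritic cells and 14.7 CPM for eosinophils. Those of neutrophils were 161 to 314 CPM (antagonist) and 20.0 to 95.9 CPM (memory), and those of endothelium in the memory groups 17.0 to 84.3 CPM.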

Additional observations from a re-analysis of the deposited data

Results flagged for a closer look

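The second response to IL-4 (second IL-4 over washed) differed from the first response (first IL-4 over unstimulated) in KO cells for 2 members, by the test of that difference itself. The difference of log2 ratios was -1.12 for Ccl2 and -1.58 for Ccl7, both lower at the second exposure. The WT differences were -0.77 for Ccl2 and -1.49 for Ccl7 and did not pass. Whether the difference itself varied with the genotype was not tested for the responses. Both KO calls were kept whichever library was left out (-1.22 to -1.02 for Ccl2 and -1.66 to -1.51 for Ccl7), and both were lost with voom and with no group weights.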

How the results depend on the processing

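Of 76 called member values, 50 kept their call in every other setting and 53 whichever library was left out, and none changed sign. Among 96 values that were not called, 6 changed sign with a setting and 29 with a library left out. With voom or with no group weights, 3 members in place of 6 were called in WT washed cells, 6 in place of 3 at the WT second against first IL-4 and 0 in place of 2 in the KO difference of responses. With 0.25 CPM added or no filter, 1 was called at the WT second against first IL-4. For KO against WT, voom called 1 of the 5 in unstimulated cells, 0 of the 4 at the first IL-4 and 1 of the 5 in washed cells. With no group weights these were 2, 1 and 1, and with the counting kind as a term 1, 0 and 3. That term rested on the pair of WT washed libraries alone. Shares of all genes called are not given here for these settings or with a library left out. A change in the count of members therefore cannot be told from a change among all genes. The cause of these changes was not tested. Voom and no group weights both drop the low weight of groups such as WT second IL-4, so calls gained there are no support. TMM scaling moved no median of all genes by over 0.1.

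Leaving out 1 library, the lone library being assumed to vary like the other groups, gave 6 to 9 calls for 24 h IL-4, 8 to 9 for IL-4 with GW9662 against GW9662, 0 to 1 for it against IL-4, and 0 for GW9662 against vehicle. In KO cells it gave 7 to 8 at the first IL-4, 3 to 4 washed, 6 at the second against first IL-4, 5 to 6 restimulated and 2 for the difference of responses. In WT cells the same comparisons gave 5, 3 to 6, 1 to 7, 4 to 6 and 0 to 4. For KO against WT it gave 1 to 4 unstimulated, 1 to 3 at the first IL-4, 1 to 5 washed, 0 to 4 at the second IL-4, 0 for the first responses and 0 to 2 for the second against first difference. Ccl6 changed sign with a WT second library left out. WT restimulated over washed was -0.09 with all libraries, 0.25 without the deeper and -0.44 without the shallower. The WT difference of responses was 0.03, 0.38 and -0.32 in the same order, and the KO minus WT second against first difference was 0.04, -0.31 and 0.38.

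No paired analysis was possible because the deposited columns are averages and the separated libraries carry no replicate number. Low read counts limit Ccl17 in both experiments and Ccl22 in the memory experiment. With no filter no memory comparison called Ccl22. Ccl17 passed for IL-4 with GW9662 against GW9662 (log2 ratio 0.80, limma adjusted p = 8.62e-04), for WT first IL-4 against unstimulated (0.18, 0.00458) and for KO against WT at the first IL-4 (-0.18, 0.0282), the last 2 on 3 reads in all, but not for IL-4 against vehicle (0.86, 0.0624).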
